A study of Mus musculus with 2 samples.

Results

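The genes described here encode the proteins of the cytosolic ribosome. They were all genes of the feature list whose mouse symbol begins with Rpl or Rps, without the Rps6k kinases and without symbols that carry -ps, together with Gm10076. The rule gave 87 of 32285 genes, of which 52 are Rpl symbols, 34 are Rps symbols and 1 is Gm10076. The set was chosen with its share of all UMIs (unique molecular identifiers, each standing for 1 captured mRNA molecule) already known, so the shares, and the position of Gm10076 within the set, are given as descriptions with no test. Against a list of standard ribosomal proteins, 77 members are standard subunits of the particle. The other 10 are 7 expressed or tissue-restricted relatives (Rpl3l, Rpl7l1, Rpl10l, Rpl22l1, Rpl36al, Rpl39l and Rps27l), the duplicate gene Rps27rt, the long non-coding RNA gene Gm10076, and Rps19bp1, whose product binds a ribosomal protein and is not itself 1 of them.

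Cells came from tumours of male C57BL/6 mice of 6 to 8 weeks that carried MC38 colon cancer cells, a line of the same strain, under the skin of both flanks. In both groups the right tumour was destroyed by microwave ablation (MWA) once it had reached about 300 mm3, and the left tumour, which was not ablated, was taken on day 8. The MWA group had ablation with an isotype control antibody, and the MWA plus TIGIT group had ablation and a blocking antibody against the inhibitory receptor TIGIT, injected every 3 days from 1 day after ablation (the sources differ between 3 and 4 injections). Live CD45+ leukocytes were enriched, sorted and sequenced with a droplet 3′ assay as 1 library per group, and the number of mice in each library was not given in the sources used here.

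Each group is a single library without a replicate. No test and no p-value is therefore given, and treatment cannot be told apart from the library. The 95% intervals below (exact binomial for a share, and exact for a ratio of 2 counts given their sum) cover counting error only. The files held 10217 and 10190 cell barcodes with 66152465 and 78751205 UMIs in the MWA and the MWA plus TIGIT library. After filtering, 9231 and 9127 cells were kept, with a median of 5334 and 6382 UMIs. The libraries had 37 barcodes in common, 28 of them among kept cells. Every gene level below is in CPM, the UMIs of the gene as parts per 1000000 UMIs of the class, and a log2 ratio compares MWA plus TIGIT with MWA unless 2 classes are named.

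A ribosome has a small subunit, which reads the mRNA, and a large subunit, which joins the amino acids, and each protein of either subunit is needed in about the same number as the others. Most of the genes share a short pyrimidine tract at the start of their mRNA through which growth signalling sets their translation, and a resting lymphocyte invests a large part of a small mRNA pool in them. In 3′ counting data they are among the most abundant mRNAs of any cell, and the counted share depends both on these mRNAs and on how much of everything else the cell makes. A pooled sum over a class cannot tell fewer ribosomal mRNAs per cell from more of the other mRNAs.

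Ribosomal protein genes took 30.9% of all UMIs in kept cells of the MWA library and 27.3% in the MWA plus TIGIT library. The log2 ratio of the shares was -0.18, with a counting interval of -0.181 to -0.179. Per cell the median count of ribosomal protein UMIs was 1761 and 1865, and the median count of all other UMIs was 3423 and 4381. Both medians were thus higher in the MWA plus TIGIT library, the second by more than the first. In CD8+ T cells (1942 and 2072 cells) the share was 41.8% and 36.9%, a log2 ratio of -0.18. There the median cell held 1757 and 1423 ribosomal protein UMIs beside 2416 and 2530 others, so the ribosomal count of this pool was lower. Of the CD8+ classes described below, the effector-like (1253 and 1075), cycling (2692.5 and 2132) and interferon-induced ones (1231 and 1144.5) had a lower median count. It was higher in the stem-like (1901 and 1988) and the exhausted-like class (2175 and 2245.5). CD4+ T cells other than regulatory ones had shares of 43.5% and 40.5%, with a log2 ratio of -0.10. In tumour-associated macrophage (TAM)-like cells (3674 and 3841 cells) the share was 26.1% and 23.8%, a log2 ratio of -0.14, with a median of 2293 and 2563 ribosomal protein UMIs per cell beside 6359 and 8064 others. Applying the class make-up of the MWA plus TIGIT library to the MWA shares gave 30.1%, and the reverse gave 28.0%, both between the measured values.

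Classes of cells were formed by clustering with the 87 members left out of the features, and were named from marker genes. UMIs of the members still counted in the total by which each cell was scaled, so the classes are not fully independent of the share. The order of the 23 named classes was led by lymphocytes. Stem-like CD8+ T cells (Il7r, Lef1, Tcf7) had the highest share, 54.7% in the MWA and 52.2% in the MWA plus TIGIT library, so that most molecules counted in them were ribosomal protein mRNAs. Gamma-delta T-like cells with Klra7 followed at 45.9% and 43.8%, and stem-like CD4+ T cells at 44.4% and 42.9%. NK-like cells had 42.1% and 39.3%. Among CD8+ T cells, the effector-like class had 41.7% and 35.7%, the exhausted-like class 41.1% and 37.6%, the cycling class 40.03% and 34.8%, and the interferon-induced class 39.3% and 34.1%. These 4 differed by only a few points within a library, and their order was not the same in both.

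Regulatory T-like cells stood apart from the other T cells at 30.1% and 27.5%, against 43.3% and 39.7% in CD4+ T-like cells of the same libraries. Dendritic cell (DC)-like classes came between most lymphocytes and most macrophages. The type 2 DC-like class had 34.8% and 29.5%, the type 1 DC-like class 32.9% and 29.6%, and the small mature DC-like class (12 and 22 cells) 30.2% and 28.5%. Of the TAM-like classes, the one with Hspb1 and Mmp12 had the highest share, 31.8% and 29.2%, and the interferon-induced one the lowest, 23.5% and 22.1%. Monocyte-like cells with Chil3 had 28.2% and 26.7%. Neutrophil-like cells (96 and 89 cells, defined by S100a8 and S100a9) were last at 7.22% (7.07 to 7.38%) and 6.88% (6.74 to 7.02%). They were also the shallowest class, with a median of 921 and 1160 UMIs, and held C1q macrophage transcripts at 1795 and 2141 CPM beside S100a8 and S100a9 at 89908 and 121864 CPM together.

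Over the 23 classes the shares of both libraries had a Spearman rank correlation of 0.82, a description over classes that share their library and its depth. The share and the median UMI count of a class had one of -0.42 in the MWA and -0.29 in the MWA plus TIGIT library. Small and large subunit members kept a near constant proportion, since the ratio of small to large subunit UMIs lay between 0.742 and 0.870 in every named class and library.

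**Figure D1:**
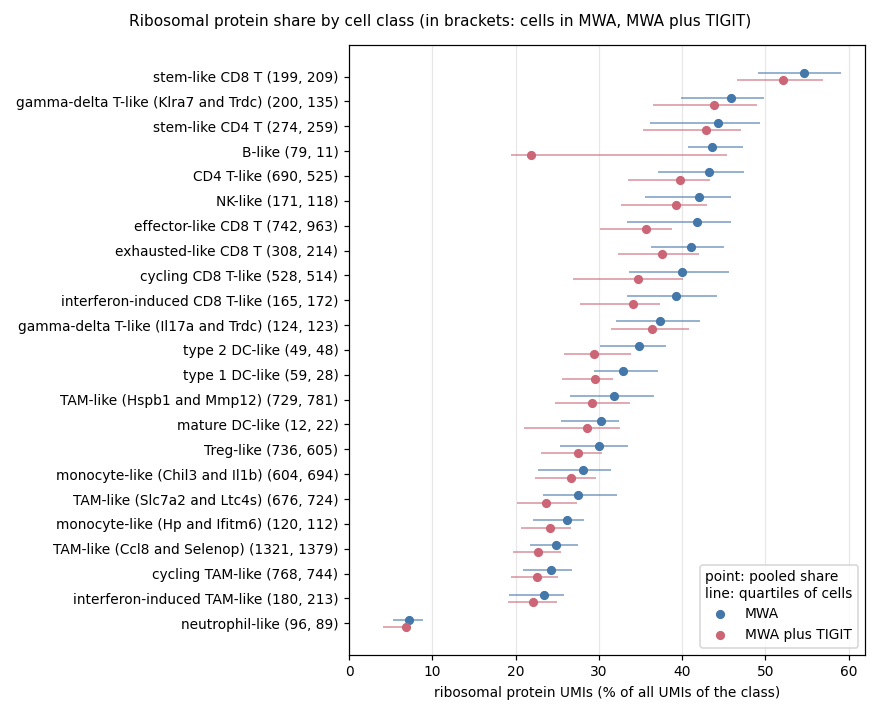
Share of all UMIs taken by the 87 ribosomal protein genes, in percent, for the 23 named classes in both libraries. Dots are the pooled shares of a class and lines span the quartiles of its cells. Stem-like CD8 T cells lie at 54.7% and 52.2%, neutrophil-like cells at 7.22% and 6.88%, and in every class the MWA plus TIGIT dot is to the left of the MWA dot.

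The share was lower in the MWA plus TIGIT library in 23 of 23 named classes, with the counting interval below 0 in each. The log2 ratio ran from -0.996 in B-like cells to -0.04 in gamma-delta T-like cells with Il17a (37.4% and 36.4%). Apart from B-like cells, the difference was largest in type 2 DC-like cells (-0.24), effector-like CD8+ T cells (-0.23) and TAM-like cells with Slc7a2 (-0.22). It was small in stem-like CD4+ T cells (-0.05), in stem-like CD8+ T cells (-0.07) and in gamma-delta T-like cells with Klra7 (-0.07). In percentage points, the share of effector-like CD8+ T cells dropped by 6.08 and that of stem-like CD8+ T cells dropped by 2.52. Whether these differences between classes exceed the spread between mice was not tested. With TMM scaling (trimmed mean of M values, which scales by the bulk of genes) the ratio of mature DC-like cells became 0.0573, and with only cells of at most 5000 UMIs that of B-like cells became 0.11.

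Depth differed between the libraries, so cells of like depth were also compared. Among bins of class and UMI count with at least 20 cells in each library, the median share was lower in the MWA plus TIGIT library in 48 of 51. CD8+ T cells of 4000 to 8000 UMIs had a median of 43.4% in the MWA and 36.8% in the MWA plus TIGIT library. TAM-like cells of 8000 to 16000 UMIs had 25.5% and 23.4%. The 3 exceptions were bins of few UMIs, namely stem-like CD4+ T cells below 1000 UMIs (13.8% and 19.1%) and, at 2000 to 4000 UMIs, TAM-like cells with Ccl8 and Selenop (16.8% and 17.3%) and with Hspb1 and Mmp12 (29.8% and 30.4%). Pooled bins could be higher in the MWA plus TIGIT library too. In CD8+ T cells below 1000 UMIs (22 and 21 cells) the medians were 19.8% and 31.1%, and in TAM-like cells of 2000 to 4000 UMIs (187 and 136 cells) they were 21.0% and 23.3%. Neutrophil-like cells, the shallowest class, were lower in the MWA plus TIGIT library both below 1000 UMIs (7.08% and 5.68%) and at 1000 to 2000 UMIs (6.40% and 5.12%).

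B-like cells were few and unlike in the libraries, with 79 and 11 cells and pooled shares of 43.6% and 21.9%. In the MWA plus TIGIT library 1 cell of 24046 UMIs held 29.7% of the UMIs of the class. It spent 13128 of them on the immunoglobulin light chain Igkc and 10.3% on ribosomal proteins. Without it the share of the class was 26.7% in that library. The plasma cell gene Jchain had 0 CPM in the MWA and 18697 CPM in the MWA plus TIGIT class, and the heavy chain Ighm 1953 and 29659 CPM. The median over cells, to which each cell contributes equally, was 43.1% and 36.2%. A cluster left unnamed (leading genes Mcpt2 and Cma1, 286 and 346 cells, mitochondrial share 3.60% and 3.84%) also depended on this choice, with pooled shares of 21.6% and 18.6% but cell medians of 14.2% and 16.3%.

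Within the set, levels ranged from 0.0147 CPM to over 10000 CPM. Rps29, a zinc-binding protein of the small subunit head, was the most abundant at 11645 CPM in the MWA and 10258 CPM in the MWA plus TIGIT library. Rps24 (8091 and 6867 CPM), Rpl39 (7930 and 6604 CPM), Rpl41 (6738 and 6748 CPM) and Rplp1 (6769 and 6122 CPM) followed, and then Rpl37a, Rpl32, Rpl13, Rpl23 and Rpl37. Rplp1 is an acidic protein of the stalk that recruits elongation factors, and Rpl39 lines the tunnel through which the new chain leaves. These 10 genes took 23.5% and 23.4% of all member UMIs. In both libraries 76 members reached 1000 CPM. The members lie on 19 chromosomes, 4 of them on chromosome X.

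At the other end 3 members stayed below 5 CPM over all kept cells in both libraries. Rpl39l, a copy of Rpl39 best known from the male germ line, had 72 and 165 UMIs (1.27 and 2.43 CPM). Rpl3l, the heart and skeletal muscle relative of Rpl3, had 66 and 109 UMIs. It was listed with 1 and 0 UMIs in all CD8+ T cells, with 44 and 48 in TAM-like cells, and with 16 and 36 in monocyte-like cells with Chil3. Among the 19 classes of at least 50 cells in each library, its highest level was elsewhere. In the MWA library it was 5.73 CPM, in monocyte-like cells with Hp. In the MWA plus TIGIT library it was 63.0 CPM, in the shallow neutrophil-like class. Rpl10l, a testis gene, had 3 UMIs and 1 UMI.

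Of the 87 members, 83 reached 50 CPM in at least 1 library over all kept cells and had enough UMIs for a ratio. The log2 ratio was below 0 in 75 of them, with a median of -0.18, whereas the 2544 genes of all kinds that passed the same filter had a median of 0.07, with 29.3% below 0. In CD8+ T cells 77 of 82 were below 0 with a median of -0.17, against 0.13 over 2366 genes. In TAM-like cells 75 of 83 were below 0 with a median of -0.13, against 0.04 over 2543 genes. Most members thus differed by a small and similar amount. CPM are parts of a fixed total, so a lower share of the set by itself raises the CPM of other genes. The medians and the counts below 0 therefore restate the pooled share, which was known when the set was chosen. A log2 ratio of at least 0.5 in size (1.41-fold) was reached by 1 member downwards, Gm10076, and by 0 upwards in all kept cells. Over all genes tested, 0.275% were past this limit downwards and 0.550% upwards. Gm10076 was likewise the only member past the limit in CD8+ T cells (1 of 82 members, background 0.549% lower and 1.65% higher), in CD4+ T cells other than regulatory ones (1 of 82, background 0.487% lower and 1.59% higher) and in TAM-like cells (1 of 83, background 0.315% lower and 0.590% higher). In effector-like CD8+ T cells Rps2, a small subunit protein at the mRNA entry, also reached it (4816 and 3397 CPM, log2 ratio -0.50), which made 2 of 82 members against 1.11% of all genes (4.74% higher, with 0 members). In B-like cells 78 of 82 members were lower by the limit and 2 higher, against 63.0% and 10.6% of all genes tested in them. Neutrophil-like cells had 6 of 81 members lower and 4 higher (background 18.2% and 16.0%), and the 12 and 22 mature DC-like cells 1 of 82 lower and 4 higher (background 17.9% and 30.2%). Elsewhere single members besides Gm10076 passed the limit, Rpl35 downwards in interferon-induced CD8+ T-like cells (-0.50), and upwards Rps27rt in both gamma-delta T-like classes (0.74 and 0.50), Rpl7l1 in NK-like cells (0.86) and Rps19bp1 in exhausted-like CD8+ T cells (0.89) and type 2 DC-like cells (2.07). Rpl7l1 and Rps19bp1 rested on at most 77 UMIs per library in these classes.

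After Gm10076 (1498 and 682 CPM, log2 ratio -1.14), the lowest ratio over all kept cells was that of Rpl35, a large subunit protein at the tunnel exit. It had 3982 and 3150 CPM, a log2 ratio of -0.34 (-0.35 to -0.33), with -0.40 in CD8+ T cells and -0.31 in TAM-like cells. Rps15a (6146 and 4987 CPM, -0.30), Rps27 (6159 and 5069 CPM, -0.28) and Rps7 (4256 and 3511 CPM, -0.28) came next. Their intervals were all below that of the pooled share. The highest ratios belonged to Rps27rt (125 and 137 CPM, 0.14), Rps15 (1658 and 1789 CPM, 0.11), Rpl7l1 (59.8 and 64.3 CPM, 0.10), Rpl23a (1449 and 1491 CPM, 0.04) and Rpl5 (986 and 1010 CPM, 0.03). Rpl5 binds 5S rRNA together with Rpl11, and the pair summed to 4574 and 4174 CPM, a log2 ratio of -0.13. In CD8+ T cells Rps27rt (206 and 247 CPM, 0.27) and Rpl13a (0.21) were highest, and in TAM-like cells Rps27rt (82.6 and 92.6 CPM, 0.17) and Rps15 (0.10).

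**Figure D2:**
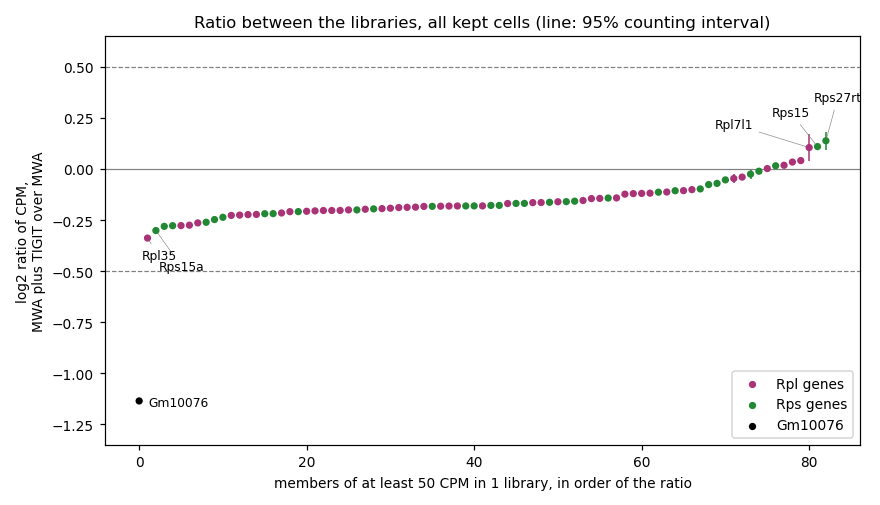
Log2 ratio of MWA plus TIGIT over MWA for the 83 members with at least 50 CPM in 1 library, over all kept cells, with 95% counting intervals as lines. The dashed lines mark a log2 ratio of 0.5 in size. Gm10076 stands alone at -1.14, the next lowest, Rpl35, lies at -0.34 and the highest, Rps27rt, at 0.14.

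Gm10076 carries a copy of the mRNA of Rpl41, the smallest protein of the ribosome. In the mouse annotation (GRCm38) it is a long non-coding RNA gene with a single exon at chr14:105681828-105682211 on the plus strand, whereas Rpl41 lies at chr10:128548114-128549305 on the minus strand. The 384 bases of Gm10076 aligned with the Rpl41 transcript without a gap and with 3 differences, an identity of 99.2%. The 78 coding bases of Rpl41 are contained in Gm10076 without a difference, and they are shown because both genes hold them, with the start and the stop codon in capitals.
Rpl41 coding sequence, also in Gm10076: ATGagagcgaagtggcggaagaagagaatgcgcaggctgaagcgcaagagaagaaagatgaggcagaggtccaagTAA
The differences are C191G, C317T and G424A, with the base of Rpl41 first, positions counted from 1 at the 5′ end of the Rpl41 transcript, and the base of Gm10076 last. The 2 downstream differences, in capitals within their surroundings, are letters by which a read that covers them can be told apart.
Rpl41 around C317T: gccagccCgtgcacc
Gm10076 around C317T: gccagccTgtgcacc
Rpl41 around G424A: ctggaacGtcacctc
Gm10076 around G424A: ctggaacAtcacctc

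Of the UMIs given to Gm10076 or Rpl41, Gm10076 took 18.2% (18.1 to 18.3%) in the MWA and 9.18% (9.10 to 9.26%) in the MWA plus TIGIT library. In the 19 classes with at least 50 cells in each library this part was between 16.8% and 19.1% in the MWA library and between 8.48% and 12.1% in the MWA plus TIGIT library, so the ranges of the libraries did not overlap. Of the neutrophil-like class, which had 50 and 39 UMIs of Gm10076, the counting intervals did overlap. The part hardly depended on the kind of cell. It was 18.4% and 9.34% in CD8+ T cells and 18.02% and 9.06% in TAM-like cells. The log2 ratio of Gm10076 was below 0 in 19 of 19 classes, from -1.29 to -0.65. Rpl41 itself had a log2 ratio of 0.00, and the sum of both genes was 8236 and 7430 CPM, a log2 ratio of -0.15, close to that of the whole set. How reads were divided between the copies by the authors' counting was not tested.

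Rps27rt is the corresponding duplicate of Rps27. All 341 bases that aligned were identical, and the 255 coding bases are the same. It took 1.98% of the UMIs of the pair in the MWA and 2.64% in the MWA plus TIGIT library, with at most 2.23% in any of the 19 classes in the former and at least 2.39% in the latter. Here the part was the higher one in the MWA plus TIGIT library. The counting intervals overlapped in some classes, such as monocyte-like cells with Hp (1.72 to 2.83% and 2.32 to 3.51%). They also did in neutrophil-like cells, with 9 and 11 UMIs of Rps27rt. The same direction was seen where a member shares sequence with a gene outside the set. Of the pair with Rpl35, Gm2000 took 1.44% and 1.997%, and of the pair with Rplp2, Wdr89 took 1.04% and 1.37%. These pairs were named after their values were seen, and the direction was not the same in every such pair. Sequence shared with other genes is common in the set, but its extent differs. Cutting the last 300 bases of each member's transcript into stretches of 31 bases, 65 of 87 members shared at least 1 stretch with another annotated gene, 22 with another gene that was measured, and 9 shared at least 50% of their stretches with measured genes. Levels of these members depend on how such reads were counted.

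**Figure D3:**
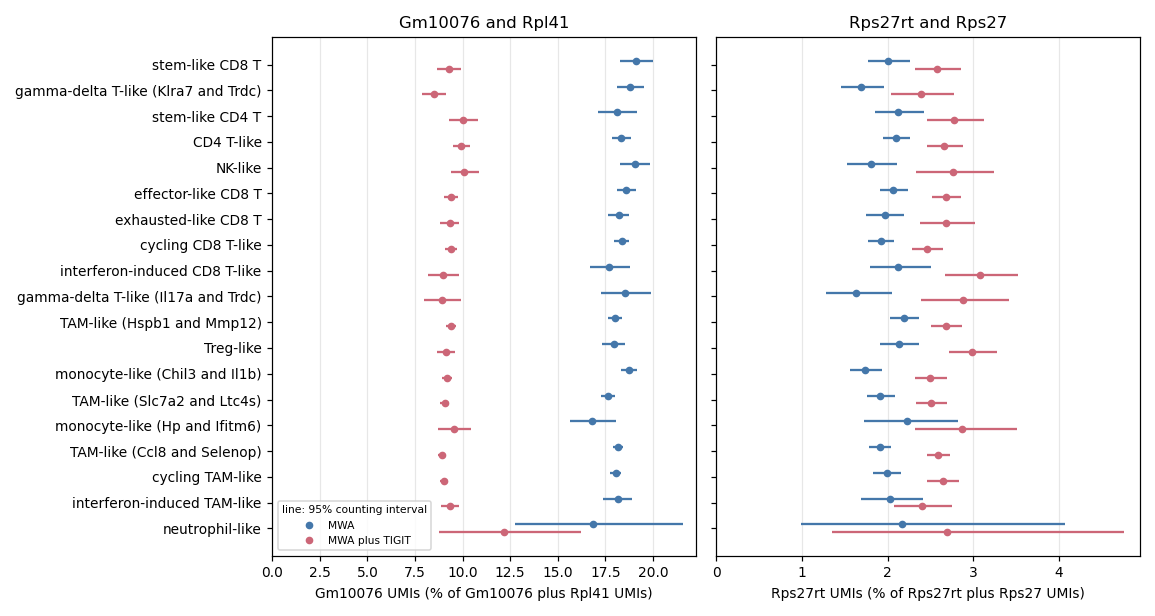
Part of the pair's UMIs given to Gm10076 (of Gm10076 plus Rpl41) and to Rps27rt (of Rps27rt plus Rps27), in percent, for 19 classes in each library, 1 point per class and library with its 95% counting interval as a line. Gm10076 lies between 16.8% and 19.1% in the MWA library and between 8.48% and 12.1% in the MWA plus TIGIT library, while Rps27rt is higher in the MWA plus TIGIT library.

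Members were also compared between classes of the same library. Counts of members past the limit largely follow from the difference in share, which was known when the set was chosen. All genes tested include the members, and a higher share of the set by itself lowers the CPM of the others. Between stem-like and effector-like CD8+ T cells the share differed by a log2 ratio of 0.39 in the MWA and 0.55 in the MWA plus TIGIT library, or 1.31-fold and 1.46-fold. Of 82 members, 14 and 46 were at least 1.41-fold higher in stem-like cells, where 5.16% and 8.13% of all genes tested were. Only 1 of them, Rps27l, was past the limit downwards in both libraries, where 35.9% and 41.9% of all genes were. Against exhausted-like cells the log2 ratio was 0.41 and 0.47 (21 of 82 and 30 of 83 members higher, background 8.60% and 9.43%), and against cycling CD8+ T cells 0.45 and 0.59 (25 and 51 of 82, background 9.35% and 10.3%). The median UMI counts of stem-like cells, 3465 and 3685, lay near those of effector-like cells, 3190 and 3260, and below those of cycling cells, 6706 and 6552.

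Rplp1, the stalk protein, had 13810 CPM in stem-like and 8454 CPM in effector-like CD8+ T cells of the MWA library, a log2 ratio of 0.71 (0.67 to 0.74), and 13791 and 7275 CPM in the MWA plus TIGIT library, a log2 ratio of 0.92 (0.89 to 0.95). Against exhausted-like cells Rps27 had 16618 and 8483 CPM in the MWA library, a log2 ratio of 0.97, and 15751 and 7424 CPM in the MWA plus TIGIT library, a log2 ratio of 1.09 (1.05 to 1.12). Rps27l went the other way in each of these contrasts. It had 144 CPM in stem-like, 228 CPM in effector-like, 342 CPM in exhausted-like and 389 CPM in cycling CD8+ T cells of the MWA library. The same 4 classes had 115, 200, 335 and 312 CPM of Rps27l in the MWA plus TIGIT library. Between stem-like and exhausted-like cells the log2 ratio of Rps27l was -1.25 (-1.55 to -0.95) and -1.54 (-1.87 to -1.22). It was the only tested member lower by the limit there in the MWA library, and Rps19bp1 was the other one in the MWA plus TIGIT library (23.3 against 57.0 CPM, a log2 ratio of -1.29), where 44.1% and 45.9% of all genes were lower.

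CD4+ T-like cells exceeded regulatory T-like cells by a log2 ratio of 0.52 and 0.53, with 50 and 51 of 82 members past the limit against a background of 7.51% and 8.55%. Again Rps27l was the only tested member that was lower in CD4+ T-like than in regulatory T-like cells by the limit, among 34.5% and 31.9% of all genes. Regulatory T-like cells had the lower median depth, 2193 and 2744 UMIs against 3487 and 3703. TAM-like cells with Hspb1 and Mmp12 exceeded those with Ccl8 and Selenop by 0.36 in either library, but with only 6 and 7 of 83 members past the limit, where 11.6% and 12.0% of all genes were. Rps27 was among them (5745 against 3785 CPM in the MWA library, 0.60), while 2 members were lower in the Hspb1 class by the limit in either library, against 40.4% and 38.8% of all genes. These were Rps27l (309 against 455 CPM, and 297 against 449 CPM) and Rpl7l1, which was further down (log2 ratio -1.04 and -0.88). Between neutrophil-like cells and monocyte-like cells with Hp the log2 ratio was -1.86 and -1.81, with 81 and 82 of 82 members lower against 52.1% and 54.3% of all genes. Stem-like CD8+ T cells, the highest class, exceeded neutrophil-like cells, the lowest, 7.57-fold and 7.58-fold.

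In the contrasts of T cell classes and of TAM-like classes Rps27l therefore ran against the set. It encodes a relative of Rps27 that is induced by p53, and 76.6% of the aligned coding bases of the 2 genes are identical. Over all kept cells it had 410 and 403 CPM. In the 19 classes of at least 50 cells in each library its highest level was in cycling TAM-like cells, 567 and 556 CPM, and stem-like CD8+ T cells, where the set was highest, had 144 and 115 CPM. Stem-like CD4+ T cells were alike, with 130 and 107 CPM. Rps27 had the opposite order, with 3181 and 2738 CPM in cycling TAM-like cells and 16618 and 15751 CPM in stem-like CD8+ T cells. Of the UMIs of both genes, Rps27l thus took 15.1% and 16.9% in cycling TAM-like cells, 10.2% and 11.4% in all TAM-like cells, 2.94% and 2.69% in all CD8+ T cells, and 0.859% and 0.728% in stem-like CD8+ T cells. Mature DC-like cells, only 12 and 22 in number, had more of it than any of these, with 1748 CPM (1406 to 2149) and 2072 CPM (1843 to 2323), which was 16.5% and 21.7% of the pair. Neutrophil-like cells, where the set was lowest, were low in Rps27l too, with 15 and 11 UMIs. Among the 19 classes they had its lowest level in the MWA plus TIGIT library, 86.6 CPM.

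The order of Rps27l held when each cell was thinned to 1000 UMIs. In cycling TAM-like cells 43.5% (39.9 to 47.1%) and 40.3% (36.8 to 43.9%) of cells then had at least 1 UMI of Rps27l, and in stem-like CD8+ T cells 10.8% (6.83 to 16.1%) and 9.76% (6.06 to 14.7%). Before thinning these shares were 96.5% and 98.1% against 36.7% and 34.0%, at median depths of 11689 and 14182 against 3465 and 3685 UMIs. Thinning left out 0 cells of the first class in either library and 5 and 4 cells of the second. No class is known to lack Rps27l. As a measure of free RNA, the C1q genes of macrophages had 332 and 336 CPM in effector-like CD8+ T cells, against 17057 and 18321 CPM in TAM-like cells with Ccl8.

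**Figure D4:**
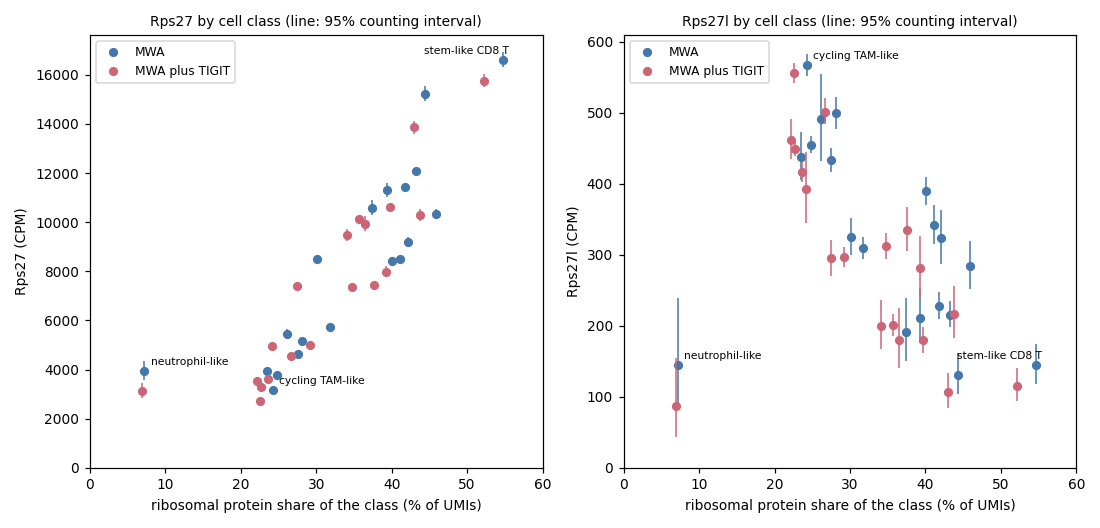
Levels of Rps27 and Rps27l in CPM against the share of all UMIs taken by ribosomal protein genes, in percent, 1 point per class and library for the 19 classes of at least 50 cells in each library, with its 95% counting interval as a line. Among these Rps27 is highest in the class with the highest share, stem-like CD8 T cells (16618 and 15751 CPM), where Rps27l is at 144 and 115 CPM, and Rps27l is highest in cycling TAM-like cells (567 and 556 CPM).

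The other relatives had patterns of their own. Rpl22l1, which shares 69.6% of aligned coding bases with Rpl22, took 30.3% and 29.2% of the UMIs of the pair, 32.5% and 31.7% in CD8+ T cells and 30.9% and 29.6% in TAM-like cells. Rpl36al, 87.9% identical to Rpl36a over the coding bases, took 36.8% and 38.2% of its pair. Its part was 25.5% and 25.1% in stem-like CD8+ T cells and 39.02% and 39.96% in cycling TAM-like cells, since Rpl36a was high in the former (3476 and 3264 CPM) and Rpl36al was at about the same level in both (1187 and 1096 against 1018 and 984 CPM). Rpl39l, Rpl3l and Rpl10l took less than 0.1% of their pairs over all kept cells.

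The make-up of the set was compared next, as the part that a member took of all member UMIs of a class, in log2 and relative to its mean over classes. In 19 classes, 26 members had at least 100 UMIs everywhere, and 445 of 494 values (90.1%) had the same sign in both libraries. The range over classes, taken from the lower of the 2 libraries, had a median of 0.51. Among these 26 the widest range was that of Rps9. It stood at 1.73 and 1.60 in neutrophil-like cells, its highest class, and at -0.35 and -0.34 in cycling CD8+ T cells. Rps27 followed, with 1.23 and 1.04 in neutrophil-like cells and -0.82 and -0.86 in cycling TAM-like cells. Rpl41, Rps29, Rps24, Rps27a, Rpl35a and Rpl37 completed the 8 widest, between 0.64 and 0.87. Rps29 was relatively high in TAM-like cells with Ccl8 (0.34 and 0.37) and low in regulatory T-like cells (-0.47 and -0.54), and Rps24 was relatively high in stem-like CD8+ T cells (0.31 and 0.34).

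Neutrophil-like cells, with few UMIs, set both the filter and several of these extremes. Leaving them out, a choice made after seeing the data, admitted 80 members in 18 classes, with a median range of 0.47 and the same sign in 92.3% of values. Only 1 of the first 8 members, Rps27, was shared. Rps27 went from 0.64 and 0.60 in stem-like CD4+ T cells to -0.75 and -0.81 in cycling TAM-like cells. Rpl10 was relatively high in TAM-like cells with Hspb1 and Mmp12 (0.64 and 0.70, 4663 and 4313 CPM) and low in regulatory T-like cells (-0.69 in either library, 1763 and 1554 CPM). Rpl12, a base protein of the stalk, was relatively high in stem-like CD4+ T cells (0.42 and 0.47) and low in monocyte-like cells with Hp (-0.78 and -0.87).

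**Figure D5:**
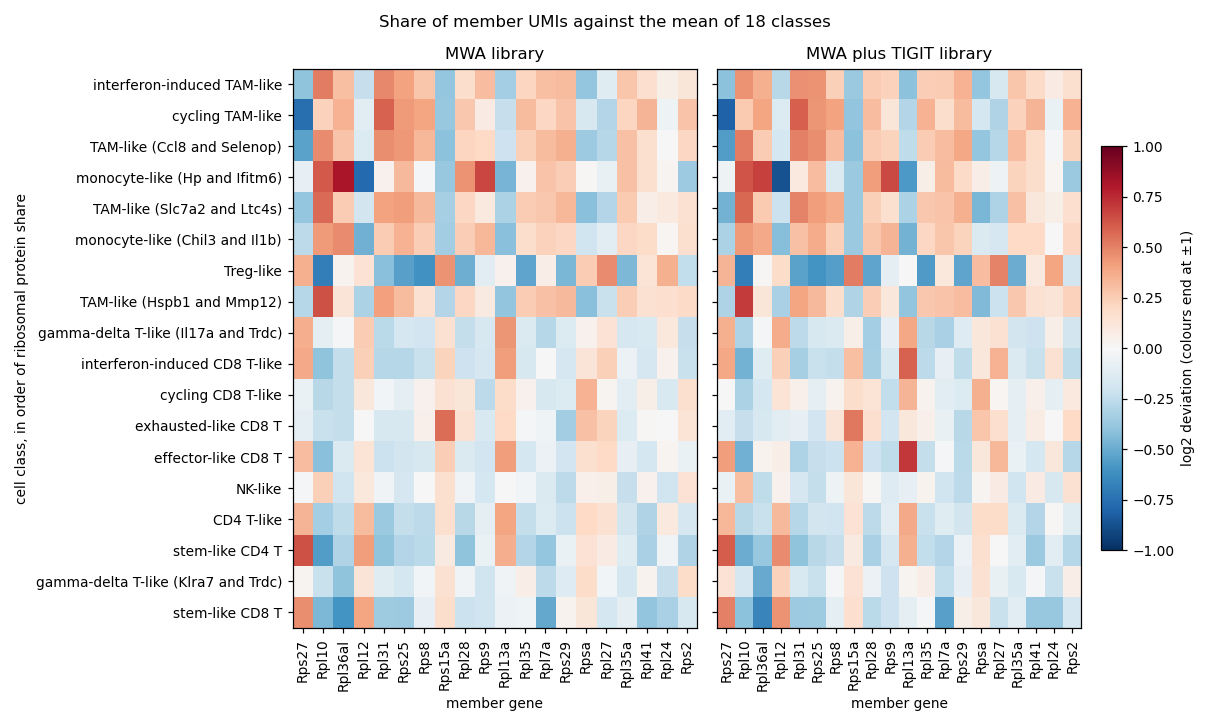
Log2 deviation of a member's part of all member UMIs from its mean over classes, for 20 members with wide ranges (columns) and 18 classes without neutrophil-like cells (rows, in order of their ribosomal protein share), with both libraries side by side. Red is above and blue below the mean. Rps27 is at -0.75 and -0.81 in cycling TAM-like cells, Rpl10 reaches 0.64 and 0.70 in TAM-like cells with Hspb1 and Mmp12, and over all 80 members 92.3% of values have the same sign in both libraries.

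Lists of genes with related functions were read in the same classes. The 78 mitochondrial ribosomal protein genes, which build the separate ribosome of that organelle, summed to 5548 and 5507 CPM, a log2 ratio of -0.01, and 42 that were measured had a median of -0.01 with 0 past the limit. Their order over the 23 classes was unlike that of the set, with Spearman correlations of -0.27 and -0.05, and cycling TAM-like cells had the most (6388 and 6416 CPM). The 13 elongation factors and other mRNAs with a pyrimidine tract followed the order of the set instead (0.88 and 0.93), with a sum of 17381 and 16659 CPM, a log2 ratio of -0.06 and 0 past the limit. In this list Tpt1 had 7003 and 6859 CPM (-0.03), Eef1a1, which brings tRNA to the ribosome, 4330 and 4170 CPM (-0.05), Naca 1189 and 1057 CPM (-0.17) and Eef1b2 1075 and 948 CPM (-0.18). Ribosome biogenesis genes (25 genes, 10 measured, 0 past the limit) had a median of -0.06 and initiation factors (18 measured, 0 past the limit) one of 0.07. Of the former the nucleolar Npm1 had 622 and 600 CPM and Ncl 396 and 403 CPM, and of the latter Eif1 had 1464 and 1349 CPM and Eif5a 515 and 532 CPM.

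Fau, a fusion of a ubiquitin-like domain with Rps30, had 8659 and 7906 CPM, a log2 ratio of -0.13, and Rack1, a scaffold on the small subunit, had 1949 and 1822 CPM, a log2 ratio of -0.10. The stalk proteins Rplp0, Rplp1, Rplp2 and Rpl12 summed to 16898 and 15240 CPM, a log2 ratio of -0.15, and all 4 were below 0 over all kept cells.

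Promoters of 66 members were found in the RefSeq table of GRCm38.p6, as 250 bases before to 50 bases after the annotated start. The letters CTTCCG, on either strand, were present in 66.7% of them against 22.0% of all 20267 genes, and CTTTCC in 54.5% against 29.5%. CCGGAAGT, which contains the reverse complement of CTTCCG, was found in 18.2% against 5.31%. GGGCGG was present in 62.1% against 45.8%, and TATAAA in 10.6% against 14.6%. As an example, CTTTCC in capitals lies before the start of Rpl23, on the minus strand at chr11:97782520-97782543.
Rpl23 promoter, minus strand: taagcgcagCTTTCCcacgcagaa
These are matches of letters and no measurement of binding.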

How the data were processed

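Per the labels and the file headers, the authors aligned droplet 3′ reads to mm10 with Cell Ranger (6.1.1 in the submitters' processing notes, 4.0.0 in the file header) and deposited, for each of the 2 libraries, a filtered matrix of raw UMI counts per gene and barcode. Cell annotations were not used here. The authors' own analysis used Seurat and DoubletFinder, and their text names a limit of 5000 UMIs, which is treated here as an alternative since 55.2% and 60.3% of the barcodes exceed it.

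Filters kept barcodes in which 200 or more genes were seen and mitochondrial UMIs did not exceed 10%, and doublets were removed by the share of simulated doublets among each cell's neighbours (806 and 786 barcodes, at 0.8% per 1000 barcodes, which was set as a rate and not estimated). Integration and clustering used Seurat (5.3.0, under R 4.3.3, 2000 variable and 3000 integration features, 40 principal components, resolution 0.1, then 1 within T and NK cells and 0.5 within myeloid cells). The members were left out of the features but not of the cell totals used for scaling. Clusters were named from marker lists, and 401 and 445 kept cells stayed unnamed. Since the names were rebuilt here, they need not match those of the study.

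UMIs were summed over the cells of each class in Python (3.11.15). Intervals came from scipy (1.17.1), and tables were handled in pandas (2.3.3) and numpy (2.4.6). A member was tested against a log2 ratio of 0.5 where it had at least 50 CPM in 1 of the libraries and at least 20 UMIs in both together. No sum has a replicate. UMIs remove most PCR copies, but the intervals cover counting error only. Total counts per library set the precision. TMM factors came from edgeR 4.0.16, as an alternative only. Scripts were checked on simulated counts, with fewer true and more false calls in neutrophil-like than in CD8+ T cells, and doublet removal missed part of the simulated doublets.

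Members named with values were the 10 most abundant, those under 5 CPM, the 5 highest and 5 lowest ratios over all kept cells, the 2 highest and 2 lowest in CD8+ T and in TAM-like cells, the 8 with the widest range of composition, the relatives with their main copies, Gm10076 and Rpl41, and up to 4 genes of each related list beside Fau and Rack1. Rps2, Rpl36a, Rpl10, Rpl12, Rpl35, Rpl7l1 and Rps19bp1 in single classes or contrasts, Gm2000 and Wdr89 were named after their values were seen. Some genes that the rule names are not reported here. The members and the lists were chosen with earlier results of these data known. The alternatives tried were a limit of 5000 UMIs, no mitochondrial limit, no doublet removal, members kept in the clustering, classes from marker UMIs without clustering, mitochondrial UMIs left out of the total, medians over cells, sets without Gm10076 or of standard members only, TMM factors and other fold and level limits. Transcripts and promoters were taken from the reference annotation given for GRCm38.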

Additional observations from a re-analysis of the deposited data

Results flagged for a closer look

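Genes whose symbols carry -ps, copies of ribosomal protein genes annotated as pseudogenes, were left out of the set, and 3 of the 5 had counts above the limit of 3 UMIs that a count of 0 allows in both libraries. There is no untreated library to set them against. Over all kept cells Rpl10-ps3 had 3173 UMIs in the MWA and 4492 in the MWA plus TIGIT library, or 1.65% and 2.17% of the UMIs given to it or to Rpl10. Rpl36a-ps1 had 536 and 737 UMIs (0.50% and 0.66% of the pair with Rpl36a), and Rpl9-ps6 had 3402 and 3979 UMIs (1.61% and 1.80% of the pair with Rpl9). Rpl9-ps1 had 2 UMIs in each library and Rpl36-ps4 had 0. No group has the 4 samples that a search for outlying samples needs.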

How the results depend on the processing

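The shares of all kept cells, 30.9% and 27.3%, became 35.2% and 32.3% with only cells of at most 5000 UMIs, 30.8% and 27.2% with no mitochondrial limit, 30.4% and 26.9% with no doublet removal, 31.2% and 27.5% without mitochondrial UMIs in the total, 30.6% and 27.3% as medians over cells, 30.7% and 27.2% without Gm10076, and 30.5% and 26.9% with the 77 standard members only. The log2 ratio over all kept cells, CD8+ T cells and TAM-like cells became -0.12, -0.19 and -0.0602 at the limit of 5000 UMIs, -0.18, -0.18 and -0.14 with no doublet removal, -0.16, -0.21 and -0.13 as medians over cells, and -0.23, -0.31 and -0.17 with TMM factors, which moved the median of all genes by -0.05, -0.13 and -0.03. Without Gm10076 and with standard members only it was -0.18, -0.18 and -0.13. With members kept in the clustering it was -0.18 in CD8+ T cells, and with classes from marker UMIs -0.18 in CD8+ T and -0.13 in TAM-like cells. Of 251 such ratios over all classes and alternatives, 123 were classed as the same and 126 as moved with their direction kept. The largest move, 1.23, came at the limit of 5000 UMIs. Direction turned in 2, namely B-like cells at the limit of 5000 UMIs (0.11) and mature DC-like cells with TMM factors (0.0573). The cause was not tested. B-like cells without their largest cell, an alternative chosen after seeing the data, had -0.71.

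The count of members lower by the fold limit, 1 in each case, became 3 over all kept cells, 5 in CD8+ T cells and 2 in TAM-like cells at a log2 ratio of at least 0.3, and 2 in CD8+ T cells with TMM factors. Without the CPM filter 1 member was higher over all kept cells and 1 in TAM-like cells, instead of 0. No paired analysis was possible because each group is 1 library. Leaving out a replicate was not possible for the same reason. Depth limits the small classes most, with 11 B-like and 12 mature DC-like cells in 1 library each.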

Other observations

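Barcodes removed for mitochondrial UMIs or as doublets had lower shares of ribosomal protein UMIs than all kept cells (30.9% and 27.3%). The doublets were only a few points lower. Barcodes with more than 10% mitochondrial UMIs (178 and 265) had a pooled share of 16.7% and 14.7%. Barcodes called as doublets (806 and 786), with a median of 10665 and 12940 UMIs, had 27.7% and 24.9%.

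Clusters that were left unnamed also differed. The one led by Hspa1b and Dnajb1 (55 and 48 cells) had a share of 46.3% and 41.7%, the one led by Ccl1 and Ctsk (36 and 29 cells) 37.4% and 32.3%, and the one led by Ctsk and Mmp9 (24 and 22 cells) 36.4% and 32.1%.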
